A study of Mus musculus with 14 samples.

Results

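Mouse tumours injected once with a polymer carrying paclitaxel and an siRNA were compared with tumours injected with vehicle, all collected at day 7. The age of the mice is not given. The comparison asks what the polymer paclitaxel treatment changed whichever siRNA it carried. A first treated group of 4 libraries received 2E'/PTX/siNeg. The other group of 4 received 2E'/PTX/siPD-L1. Here 2E' is taken to be the immunoactive polymer that the title names, PTX to be paclitaxel, siNeg a negative-control siRNA and siPD-L1 an siRNA to the checkpoint ligand PD-L1. The vehicle libraries were D5W, which is 5% dextrose in water (n = 3). The host was the C57BL/6 mouse throughout, with tumour cells placed under the skin and the injection given into the tumour. These 11 of the 14 libraries of the series were taken by their labels alone, and the 3 remaining ones, untreated tumours at day 0, are shown for reference. D5W tumours received neither polymer, paclitaxel nor siRNA, so the shares of the 3 agents in a difference cannot be told apart. The labels do not say that each library is a separate mouse, so p-values measure only the spread between these samples, which may be technical.

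The cell type label names CT26, a colon carcinoma line, while the treatment protocol names B16F10, a melanoma line. Pigment cell genes were high in all 14 libraries. The melanin enzyme Dct ranged from 6479 to 8675 CPM (the depth-scaled count, with TMM factors) and the lineage factor Mitf from 522 to 1618 CPM. Of 8 intestinal epithelial genes 4 passed the expression filter, and Vil1, the highest of them, reached 4.87 CPM. These levels go against the CT26 label.

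Proteins bound for secretion enter the endoplasmic reticulum (ER) through the Sec61 channel, are folded there by chaperones, and leave in vesicles coated with COPII. Escaped chaperones are returned by KDEL receptors in COPI vesicles. Cells match this machinery to load through the unfolded protein response, while the factors Atf4, Nrf2 and HIF raise genes for amino acid shortage, oxidative stress and low oxygen. Paclitaxel stabilises microtubules and blocks mitosis.

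Libraries held 60.2 M to 85.9 M counts. D5W replicate 3 stood apart from the other day 7 libraries, at 64.7 on a first principal component that held 29.3% of the variance, where the other 10 lay between -27.5 and 27.3. It also had the highest list mean of the 3 D5W libraries for fibroblast (4.74 log2 CPM), macrophage (3.75) and endothelial genes (1.97). In siPD-L1 replicate 1 the ribosomal RNA-like gene Gm42418 took 9.71% of counts. The calls and many list medians are therefore given with and without D5W replicate 3. A value given only once includes that library and may depend on it.

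Of 17141 genes tested, 43 changed between the treated and the D5W libraries (edgeR quasi-likelihood test, adjusted p under 0.05), which is 0.251%. Of these, 4 rose (0.0233%) and 39 fell (0.228%), among them 1 rise and 19 falls of at least 2-fold. Before adjustment, 4.87% of genes were higher and 7.11% lower at p under 0.05. The 8 treated and 3 D5W libraries did not overlap in 2.49% of genes, in 0.968% with treated higher and in 1.52% with treated lower, and 42 of the 43 called genes were among these. The median log2 fold change over all tested genes was 0.012. The count rested on single libraries. It was 16 without D5W replicate 3 (7 higher, 9 lower), 166 without D5W replicate 2, 89 without siPD-L1 replicate 1 and, for siNeg, 25 without replicate 2 and 28 without replicate 4. In all, 9 of the 43 calls held whichever of the 11 day 7 libraries was left out: Kdelr3, Hmox1, Sec24d, Sec16b, Prrc1, Papss2, Acox2, Bcat1 and Nnmt. A further 14 were lost only without D5W replicate 3, and 20 also without another library. Kdelr3 and Hmox1 alone passed under all 22 alternative settings.

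**Figure D1:**
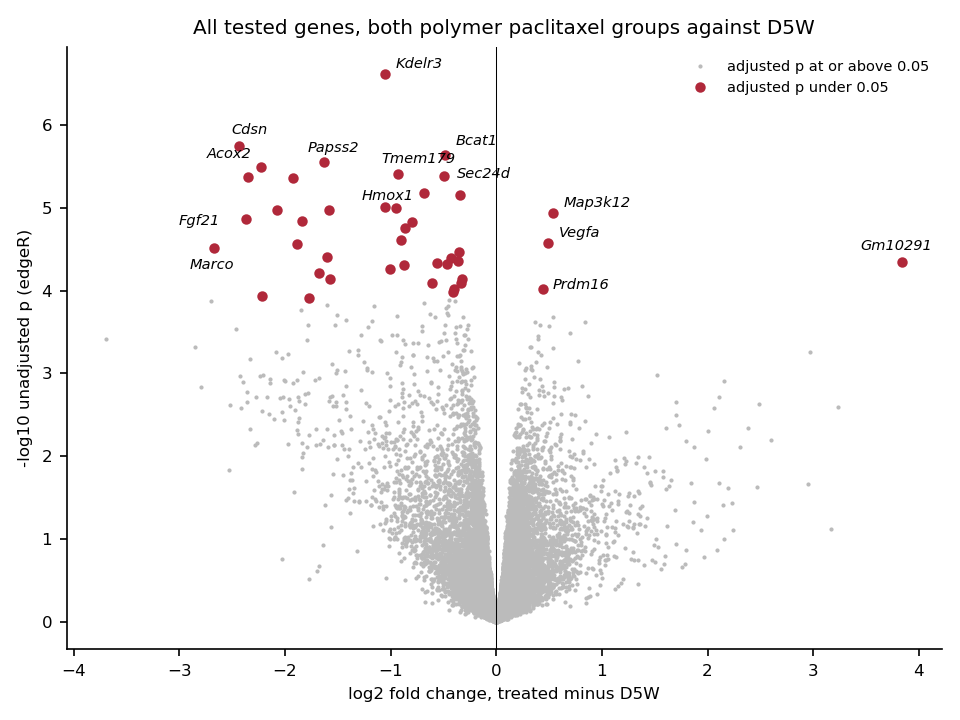
Log2 fold change (treated minus D5W, x axis) against -log10 of the unadjusted p of edgeR (y axis) for each of the 17141 tested genes. The 43 called genes, in red, lie mostly on the left, with 39 lower in treated tumours and 4 higher.

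Among the gene lists, that of the ER export and retrieval machinery held the most calls, although most calls lay in no list. It was also the list with the most tested genes. The lists were chosen with earlier results of these data known, so this ranking may partly follow from the choice of members. Kdelr3, the receptor that returns KDEL-tagged chaperones to the ER, fell by about 1 log2 unit, and parts of the COPII coat fell by less. Of 41 secretory pathway genes tested, 6 fell and 0 rose, 24 were lower and 0 higher at unadjusted p under 0.05, and 38 had a log2 fold change below 0. The list median was -0.17, beside 0.012 over all genes. In 11 members the 8 treated libraries lay below all 3 D5W libraries. The mean log2 CPM over the list was 6.77 to 6.83 in the D5W libraries and 6.53 to 6.65 in the treated ones, which do not overlap. Without D5W replicate 3 the median was -0.18, and 3 of the 6 calls held (Kdelr3, Sec24d and Sec16b).

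Kdelr3 (ENSMUSG00000010830, chromosome 15, 79516411 to 79527739, GRCm38 with GENCODE M21) had 13.2, 12.4 and 12.8 CPM in the D5W libraries. It had 6.06, 6.48, 7.26 and 4.40 CPM with siNeg, and 5.67, 6.92, 5.92 and 6.62 CPM with siPD-L1. Every treated library was below every D5W library, and the day 0 libraries were higher still, at 15.8 to 19.4 CPM. The log2 fold change was -1.05±0.12 (SE), with an edgeR adjusted p of 0.00417, and -1.05 without D5W replicate 3 (adjusted p = 0.00626). Kdelr3 overlaps Ddx17 on the opposite strand, and the strand setting of the counting is not given, so reads of the pair cannot be told apart. Ddx17, an RNA helicase, had 456±40.1 CPM in treated and 410±47.1 in D5W libraries (SD, n = 8 and 3). The paralogs of Kdelr3, shown for their kinship, were Kdelr1 at -0.05±0.12 (adjusted p = 0.908) and Kdelr2 at -0.29±0.08 (adjusted p = 0.152).

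Sec24d (ENSMUSG00000039234, chromosome 3, 123267455 to 123365641), which picks cargo for COPII vesicles, had 83.7, 82.2 and 92.9 CPM in D5W and from 54.8 (median 61.9) to 70.3 CPM in treated libraries. No treated library reached the D5W range. It fell by 0.49±0.07 log2 (edgeR adjusted p = 0.00824), and by 0.44 without D5W replicate 3 (adjusted p = 0.0478). Sec16b, a scaffold of ER exit sites, was a low gene, at 1.70, 1.96 and 4.03 CPM in D5W and 0.335 to 0.983 CPM in treated libraries. It fell by 1.93±0.27 (adjusted p = 0.00824), and by 1.45 without D5W replicate 3, whose level was the highest of the 3 (adjusted p = 0.0478).

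The other 3 calls were abundant genes with shifts near 0.3 on the log2 scale. Sec23a, the partner of Sec24 in the COPII coat, had 84.2 to 91.8 CPM in D5W and 61.9 to 77.6 CPM in treated libraries (-0.36±0.06, edgeR adjusted p = 0.0262). Sec24a, another cargo adaptor, had 60.8 to 71.1 against 45.8 to 55.5 CPM (-0.33±0.06, adjusted p = 0.0367). Sec61a1, the pore of the translocation channel, had 677 to 707 against 524 to 627 CPM (-0.33±0.06, adjusted p = 0.0347). In none of these did the groups overlap. All 3 calls were lost without D5W replicate 3, at -0.33, -0.28 and -0.35 with adjusted p of 0.0922, 0.141 and 0.0568, and likewise without D5W replicate 1, siNeg replicate 2 or siNeg replicate 4. Outside the list, Stt3a, the catalytic subunit that attaches glycans to proteins entering the ER, fell by 0.35±0.06 (316, 327 and 362 against 249 to 282 CPM, adjusted p = 0.0233; -0.29 and 0.0916 without D5W replicate 3). Prrc1, a protein found at ER exit sites, fell by 0.34±0.05 (68.4 to 70.0 against 51.0 to 59.3 CPM, adjusted p = 0.0108; -0.34 and 0.0478 without D5W replicate 3).

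**Figure D2:**
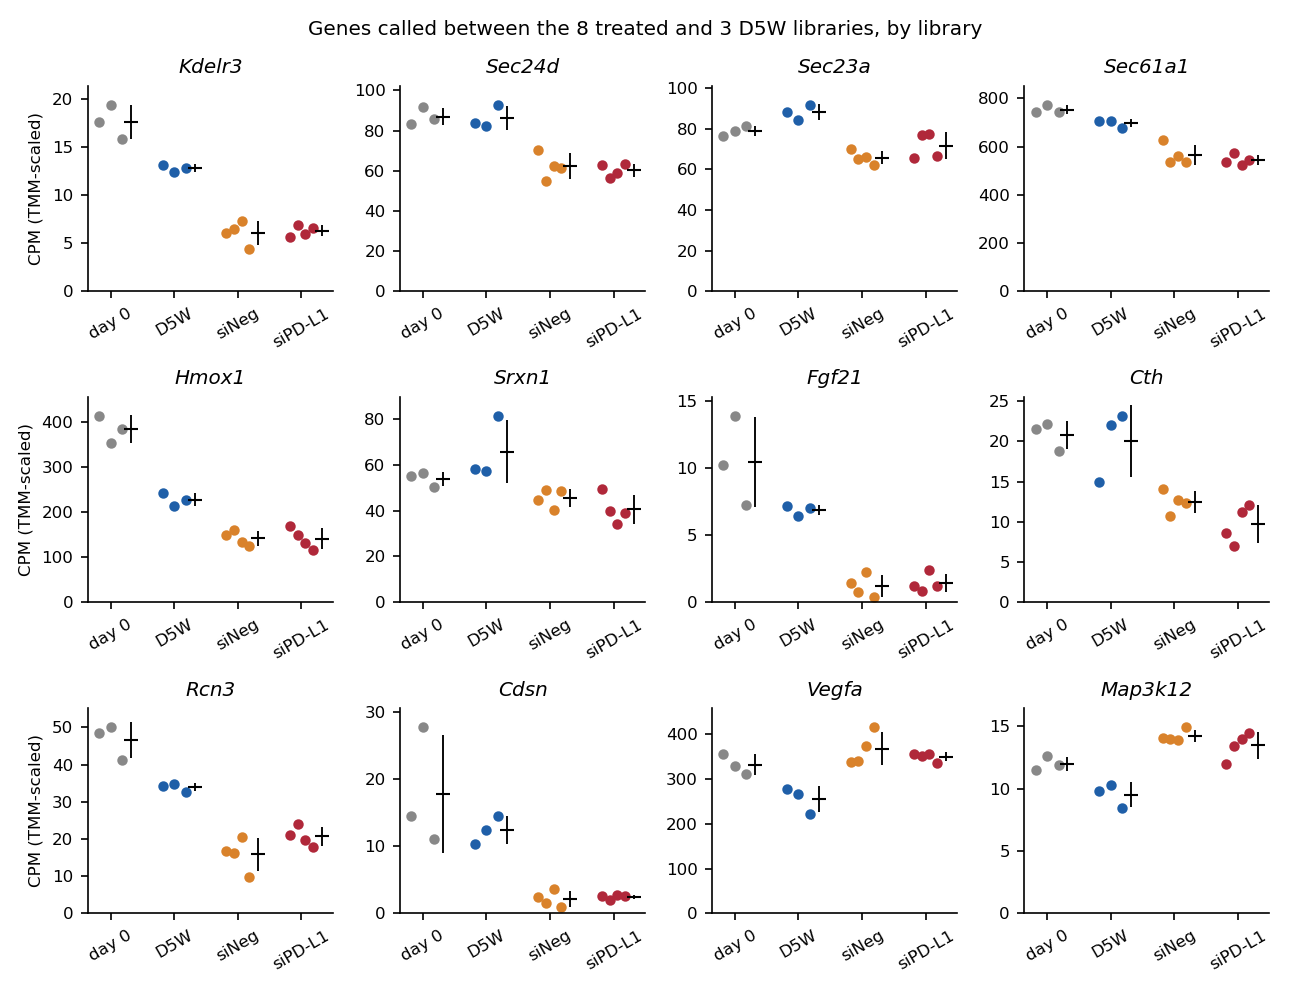
TMM-scaled CPM (y axis, from 0) of 12 called genes in each library at day 0, with D5W, siNeg and siPD-L1, with the mean and SD beside the points. In 10 genes all 8 treated points lie below the 3 D5W points, and in Vegfa and Map3k12 all lie above them.

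The promoters of Kdelr3 and Sec24d are shown because these are the 2 list members with the smallest p and both hold the ACGTG core that is known from hypoxia and unfolded protein response elements. The 250 bases before the annotated start are from RefSeq (GRCm38.p6), 5' to 3' on the gene's strand, with each ACGTG in capitals on either strand:
Kdelr3, chr15:79516158-79516407, plus strand: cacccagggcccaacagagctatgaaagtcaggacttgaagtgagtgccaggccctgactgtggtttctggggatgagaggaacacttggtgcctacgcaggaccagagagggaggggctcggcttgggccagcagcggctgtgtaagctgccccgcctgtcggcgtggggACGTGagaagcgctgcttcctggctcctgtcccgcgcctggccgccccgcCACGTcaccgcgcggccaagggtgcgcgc
Sec24d, chr3:123267246-123267495, plus strand: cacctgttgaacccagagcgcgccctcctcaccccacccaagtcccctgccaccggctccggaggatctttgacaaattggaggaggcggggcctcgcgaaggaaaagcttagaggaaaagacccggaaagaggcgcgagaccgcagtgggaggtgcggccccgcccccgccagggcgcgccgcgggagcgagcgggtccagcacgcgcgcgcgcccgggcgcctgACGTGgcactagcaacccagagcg
In Kdelr3 the matches begin 79 bases before the start on the gene's strand and 29 bases before it on the other. In Sec24d the single match begins 24 bases before the start. ACGTG was found on either strand, in a window of 250 bases before to 50 after the start, in 71.4% of the 35 secretory list genes with a window. The share was 28.0% of 11854 tested genes with a window and 46.4% of the 28 genes that fell and have one. It was 68.2% of the 22 hypoxia and glycolysis list genes with a window, a list with a median above 0. Of the 3 genes that rose and have a window, 2 held ACGTG. These are matches of letters and describe no binding.

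ER chaperones and other genes of the unfolded protein response were lower as a list, with no single call in the main edgeR test. DESeq2 called 4 members lower: Calr, Dnajb9, Hyou1 and Pdia4. Of 22 tested, 0 passed the adjusted test in either direction, 18 were lower and 0 higher at unadjusted p under 0.05, and 21 had a log2 fold change below 0 (median -0.26). The list mean was 7.97 to 8.04 log2 CPM in D5W and 7.64 to 7.88 in treated libraries, without overlap. The median was -0.26 also without D5W replicate 3. The members with the smallest p were Pdia4, a disulfide isomerase (-0.37±0.09, edgeR adjusted p = 0.11), the chaperone Hyou1 (-0.36±0.10, adjusted p = 0.132), the co-chaperone Dnajb9 (-0.60±0.16, adjusted p = 0.135) and Calr, a calcium-binding chaperone of glycoproteins (-0.33±0.09, adjusted p = 0.141). Pdia4 had 467, 521 and 544 CPM in D5W and 341 to 438 CPM in treated libraries, which did not overlap, whereas those of Calr did.

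The ER stress element, CCAAT and CCACG with 9 bases between them, was found on either strand in 8 of the 18 chaperone list genes with a window (44.4%) and in 0.177% of all tested genes with one. It was in 0 of 28 genes that fell. Calr is shown as the member with the smallest p that holds it, with the element in capitals (opposite strand, 162 bases before the start; RefSeq, GRCm38.p6):
Calr, chr8:84846932-84847181, minus strand: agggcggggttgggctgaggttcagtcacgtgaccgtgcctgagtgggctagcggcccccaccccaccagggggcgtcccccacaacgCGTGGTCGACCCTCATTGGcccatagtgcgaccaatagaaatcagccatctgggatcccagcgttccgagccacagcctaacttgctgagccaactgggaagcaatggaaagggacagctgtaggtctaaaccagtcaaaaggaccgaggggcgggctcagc

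Genes raised by Nrf2 under oxidative stress were lower in treated tumours, led by Hmox1. Of 14 tested, 2 fell and 0 rose, 10 were lower and 0 higher at unadjusted p under 0.05, and the median was -0.32 (-0.30 without D5W replicate 3). The list mean was 6.88 to 7.02 log2 CPM in D5W and 6.47 to 6.68 in treated libraries. At day 0 it was 7.01 to 7.08. The treated libraries were thus the lowest of the series for these genes, without overlap with either untreated or vehicle tumours.

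Hmox1 (ENSMUSG00000005413, chromosome 8, 75093621 to 75100589), heme oxygenase 1, had 242, 213 and 226 CPM in D5W, 150, 160, 133 and 124 CPM with siNeg, and 169, 148, 131 and 115 CPM with siPD-L1. The groups did not overlap. It fell by 0.68±0.10 log2 (edgeR adjusted p = 0.0108), and by 0.69 without D5W replicate 3 (adjusted p = 0.0478). Srxn1, sulfiredoxin, which repairs oxidised peroxiredoxins, had 58.2, 57.2 and 81.3 against 34.0 to 49.2 CPM. It fell by 0.61±0.11 (adjusted p = 0.0367), a call lost in 8 of the 11 omissions of a library, with -0.43 (adjusted p = 0.141) without D5W replicate 3. A further 2 members lay close to the threshold: Slc7a11, the cystine importer (-1.15±0.22, adjusted p = 0.0529), and Gclm, a subunit of the first enzyme of glutathione synthesis (-0.48±0.10, adjusted p = 0.0545). Slc7a11 had 52.1, 62.7 and 96.2 CPM in D5W and 13.3 (median 33.0) to 42.9 CPM in treated libraries. Nfe2l2, which encodes Nrf2 itself, had a log2 fold change of -0.11±0.06 (adjusted p = 0.486).

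Atf4 targets of amino acid shortage included 2 falls and 0 rises among 18 tested, with 11 lower and 0 higher at unadjusted p under 0.05 and a median of -0.24 (-0.26 without D5W replicate 3). The list median against D5W was -0.1 with siNeg and -0.37 with siPD-L1. Fgf21 (ENSMUSG00000030827, chromosome 7, 45613886 to 45615490), a stress-induced hormone, had 7.17, 6.43 and 7.02 CPM in D5W. It had 1.48, 0.803, 2.24 and 0.377 CPM with siNeg and 1.19, 0.876, 2.38 and 1.23 CPM with siPD-L1. The highest treated library was below a D5W level that varied little, and Fgf21 fell by 2.37±0.36 log2 (edgeR adjusted p = 0.0135). Without D5W replicate 3 the value was -2.36, with adjusted p = 0.0894. Cth, which makes cysteine from cystathionine, had 15.0, 22.1 and 23.2 against 6.96 to 14.1 CPM and fell by 0.87±0.15 (adjusted p = 0.0263; -0.75 and 0.137 without D5W replicate 3). Nupr1, a stress-induced chromatin protein, was at -0.78±0.19 (adjusted p = 0.102). Atf4 itself was at 0.00±0.08 (adjusted p = 0.993). The Atf4 and Nrf2 lists share Slc7a11.

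The metabolic enzymes Bcat1 and Nnmt, which are in neither list, held their calls in all 11 single omissions. Bcat1, which starts the breakdown of branched-chain amino acids, had 100.5, 110 and 114 CPM in D5W and from 66.3 (median 78.0) to 88.3 CPM in treated libraries, without overlap. It fell by 0.48±0.06 (edgeR adjusted p = 0.00824; -0.44 and 0.0478 without D5W replicate 3). Nnmt, which methylates nicotinamide, had 6.74, 7.25 and 6.48 against 2.43 to 4.92 CPM and fell by 0.86±0.14 (adjusted p = 0.0149; -0.90 and 0.0478 without D5W replicate 3).

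Enzymes that mature and crosslink collagen included falls of Rcn3 and P3h2. Of 20 tested, 2 fell and 0 rose, while 9 were lower and 3 higher at unadjusted p under 0.05 (median -0.12, and -0.13 without D5W replicate 3). Rcn3, a calcium-binding protein of the ER lumen (ENSMUSG00000019539, chromosome 7, 45082913 to 45092221), had 34.2, 34.8 and 32.6 CPM in D5W and 9.91 (median 18.8) to 24.0 CPM in treated libraries. It fell by 0.90±0.15 (edgeR adjusted p = 0.0198; -0.93 and 0.0864 without D5W replicate 3). P3h2, which hydroxylates prolines of collagen, had 43.8, 44.7 and 61.5 against 32.5 to 39.8 CPM and fell by 0.47±0.08 (adjusted p = 0.0262; -0.29 and 0.0519 without D5W replicate 3). Its paralog P3h1 was at -0.39±0.08 (adjusted p = 0.07), and Plod2, a lysyl hydroxylase, was among the higher members at 0.19±0.06 (adjusted p = 0.201).

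Matrix genes of fibroblasts are given beside these. Of 22 tested, 0 were called, 17 were lower and 0 higher at unadjusted p under 0.05, and the median was -0.96. The list mean was 4.24, 2.89 and 4.74 log2 CPM in the 3 D5W libraries and 2.45 to 4.03 in the treated ones, so the groups overlapped, and in 0 of the 22 members were they apart. Without D5W replicate 3 the median was -0.57. Without D5W replicate 2 it was -1.30, and 7 members were called lower. DESeq2 on all libraries called 3 members lower. Col3a1, a fibrillar collagen, had 207, 32.5 and 409 CPM in D5W against 14.6 (median 28.3) to 127 CPM (-2.33±0.65, edgeR adjusted p = 0.184). The crosslinking enzyme Lox (-2.02±0.51, adjusted p = 0.128), the microfibril protein Fbn1 (-2.02±0.54, adjusted p = 0.148) and the proteoglycan Dcn (-1.66±0.52, adjusted p = 0.217) had the same pattern, with D5W replicate 2 within the treated range. Without D5W replicate 3, Col3a1 was at -1.48, Lox at -1.73, Fbn1 at -1.36 and Dcn at -0.54. In these bulk samples fewer fibroblasts and less RNA per fibroblast cannot be told apart. The part of fibroblast content in the falls of Rcn3, P3h2, Serpinf1 and Loxl4 was not tested. Of the 3 D5W libraries, replicate 3, with the highest fibroblast list mean, had the highest levels of P3h2, Serpinf1 and Loxl4. Replicate 2, with the lowest list mean, had the highest level of Rcn3.

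Serpinf1 and Loxl4 also encode secreted proteins. Serpinf1, an inhibitor of blood vessel growth also called PEDF, had 29.9, 38.8 and 47.0 CPM in D5W and 14.9 to 24.6 CPM in treated libraries. It fell by 0.94±0.14 (edgeR adjusted p = 0.0121; -0.78 and 0.0748 without D5W replicate 3). Loxl4, of the lysyl oxidase family, had 1.22, 1.55 and 2.17 against 0.279 to 0.856 CPM and fell by 1.59±0.24 (adjusted p = 0.0121; -1.34 and 0.057 without D5W replicate 3).

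**Figure D3:**
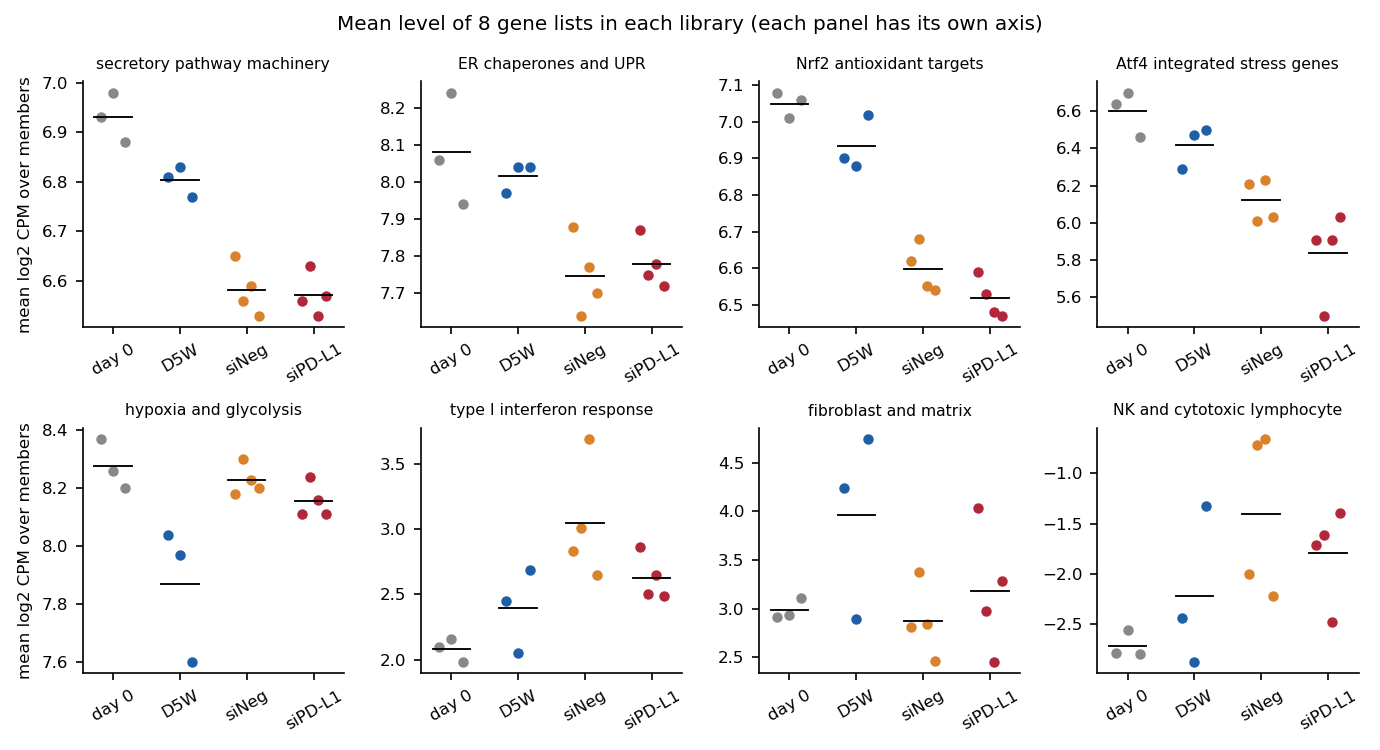
Mean log2 CPM over the tested members of 8 gene lists in each library, with group means as lines and an axis of its own for each panel. The D5W and treated libraries do not overlap for the first 5 lists (secretory, chaperone, Nrf2, Atf4, and hypoxia) and overlap for the interferon, fibroblast and NK lists.

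Genes of low oxygen and glycolysis were the 1 list of the 43 whose mean was higher in every treated library than in every D5W library. Of 24 tested, 1 rose and 0 fell, 17 were higher and 0 lower at unadjusted p under 0.05, and 23 had a log2 fold change above 0 (median 0.28). The list mean was 8.04, 7.97 and 7.60 log2 CPM in D5W and 8.11 to 8.30 in treated libraries. D5W replicate 3 was the lowest, and without it the median was 0.19. At day 0 the list mean was 8.2 to 8.37, so that D5W was the low group.

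Vegfa (ENSMUSG00000023951, chromosome 17, 46016993 to 46032369), the main growth factor for blood vessels, had 277, 266 and 222 CPM in D5W. It had 338, 341, 375 and 417 CPM with siNeg and 355, 352, 356 and 336 CPM with siPD-L1. All treated libraries were above the D5W libraries. Against the day 0 range of 311 to 356 CPM, 6 of the 8 lay inside it and 2, both siNeg, above it. Vegfa rose by 0.49±0.08 log2 (edgeR adjusted p = 0.0203), and the value without D5W replicate 3 was 0.40 (adjusted p = 0.0654). The peptide hormone gene Adm (0.54±0.11, adjusted p = 0.0593), the HIF target Ankrd37 (0.84±0.17, adjusted p = 0.0633) and the glycolytic enzyme Pfkl (0.33±0.08, adjusted p = 0.0968) did not pass, and their groups did not overlap. Among 14 angiogenic ligands and receptors Vegfa was the 1 call (median -0.05), and Angptl4, which also acts on lipoprotein lipase, was at -1.03±0.25 (adjusted p = 0.0999).

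The other rises were Map3k12, Prdm16 and the pseudogene Gm10291. Map3k12 (ENSMUSG00000023050, chromosome 15, 102497646 to 102517064), a kinase known from stressed neurons, where it activates JNK, had 9.84, 10.3 and 8.43 CPM in D5W. Its treated levels ran from 12 (median 14) to 15 CPM, above all D5W libraries. It rose by 0.54±0.08 (edgeR adjusted p = 0.0125; 0.46 and 0.054 without D5W replicate 3). On the opposite strand, Map3k12 overlaps Gm10337 and Pcbp2, and Prdm16 overlaps B230104I21Rik, so their reads may be shared. Prdm16, a transcription factor of brown fat and stem cells, had 134, 137 and 104 against 157 to 192 CPM and rose by 0.44±0.08 (adjusted p = 0.0414), a call lost in 8 of the 11 omissions of a library (0.32 and 0.0985 without D5W replicate 3). Gm10291 had 0.331, 0.384 and 0.115 CPM in D5W and 3.24 to 5.64 CPM in 7 treated libraries, but 0.354 CPM in siPD-L1 replicate 3. Its rise (3.84±0.65, adjusted p = 0.0262) was lost without D5W replicate 1, D5W replicate 3 (adjusted p = 0.177), siNeg replicate 2 or siNeg replicate 4. It is uncertain also because reads of a pseudogene and its parent gene may not be separable, which was not tested.

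Among the falls of more than 2-fold were genes of low level with roles in skin, sulfation, peroxisomes and actin. Cdsn (ENSMUSG00000039518, chromosome 17, 35552128 to 35557180), an adhesion protein best known from the outer skin, had 10.4, 12.4 and 14.5 CPM in D5W and 0.893 (median 2.53) to 3.62 CPM in treated libraries. It fell by 2.43±0.31 (edgeR adjusted p = 0.00824), with -2.30 and 0.054 without D5W replicate 3. Papss2, which makes the sulfate donor for proteoglycans, had 4.79, 6.33 and 11.6 against 1.35 to 2.94 CPM and fell by 1.63±0.22 (adjusted p = 0.00824; -1.18 and 0.0478 without D5W replicate 3).

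Acox2, a peroxisomal oxidase of branched fatty acids and bile acid precursors, had 1.31, 2.15 and 2.66 CPM in D5W and 0.208 to 0.696 CPM in treated libraries. It fell by 2.23±0.31 (edgeR adjusted p = 0.00824; -1.99 and 0.0478 without D5W replicate 3). The actin-binding protein Avil, at 3.02, 4.67 and 7.02 against 0.473 to 1.5 CPM, fell by 2.35±0.33 (adjusted p = 0.00824; -2.00 and 0.0568). Akr1b7, of the aldo-keto reductase family, at 3.29, 4.58 and 3.72 against 0.445 to 1.72 CPM, fell by 1.84±0.29 (adjusted p = 0.0135; -1.86 and 0.0568). In none of these did treated and D5W libraries overlap.

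Of the remaining falls, Steap1, a membrane protein of a metalloreductase family, had 6.34 to 7.86 CPM in D5W and 3.27 to 4.85 CPM in treated libraries (-0.80±0.13, edgeR adjusted p = 0.0135; -0.70 and 0.0654 without D5W replicate 3). Tmem179 had 28.7, 28.8 and 37.9 against 13 to 20.2 CPM (-0.93±0.13, adjusted p = 0.00824; -0.78 and 0.0519). Hoxb9, a homeobox factor of body position, had 14.4 to 21.4 against 4.32 to 11.9 CPM (-1.01±0.18, adjusted p = 0.0281; -0.84 and 0.153). Cdk6, a kinase of the G1 phase, had 32.2 to 39.3 against 23.3 to 28.4 CPM (-0.42±0.07, adjusted p = 0.0258; -0.34 and 0.0985). The large extracellular proteins Sspo (-1.60±0.28) and Otog (-2.22±0.42), and the macrophage scavenger receptor Marco (-2.67±0.45), fell with adjusted p of 0.0258, 0.0479 and 0.022. Without D5W replicate 3 the calls of Sspo (adjusted p = 0.0568) and Otog (adjusted p = 0.2) were lost, and that of Otog was lost in 8 of the 11 single omissions. Marco rested on D5W replicate 3, which had 1.63 CPM beside 0.532 and 0.214, and was at -1.59 (adjusted p = 0.141) without it. Its treated levels were 0.0419 to 0.182 CPM. The macrophage list mean was also highest in D5W replicate 3, at 3.75 log2 CPM beside 3.04 and 2.94, and the part of macrophage content in the fall of Marco was not tested.

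Dthd1 (-2.08±0.32), Fibcd1 (-1.68±0.30), Asic4 (-1.58±0.29), Tppp (-1.77±0.33), Zfp9 (-0.56±0.10), Atf7ip (-0.41±0.08) and the unnamed genes AL805899.1, 4930438A08Rik and Gm14005 complete the falls, with edgeR adjusted p of 0.0121 to 0.0484, and none of these 9 calls held without D5W replicate 3. Of all 43 called genes, 15 overlap another annotated gene, so that their reads may be shared. Of the 39 genes that fell, 34 had a lower treated than day 0 mean, and in 24 the D5W mean was below day 0 as well.

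Both treated groups had values of like sign for the called genes. They share the 3 D5W libraries, so their values are given side by side only. Kdelr3 was at -1.08 with siNeg and -1.02 with siPD-L1 and Hmox1 at -0.68 and -0.69. Vegfa was at 0.53 and 0.45 and Fgf21 at -2.48 and -2.27. Against D5W alone 18 genes changed with siNeg (4 higher, 14 lower) and 5 with siPD-L1, all 5 lower, and 23 of the 43 pooled calls passed in neither. Between siPD-L1 and siNeg 0 of 17141 genes (0%) changed by edgeR, where 1471 had an unadjusted p under 0.05, DESeq2 called 56 and voom called 5. Among the 43 genes the difference between the siRNA groups ran from -0.62 to 0.82, and its smallest adjusted p was 0.523. That does not show that the groups act alike.

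**Figure D4:**
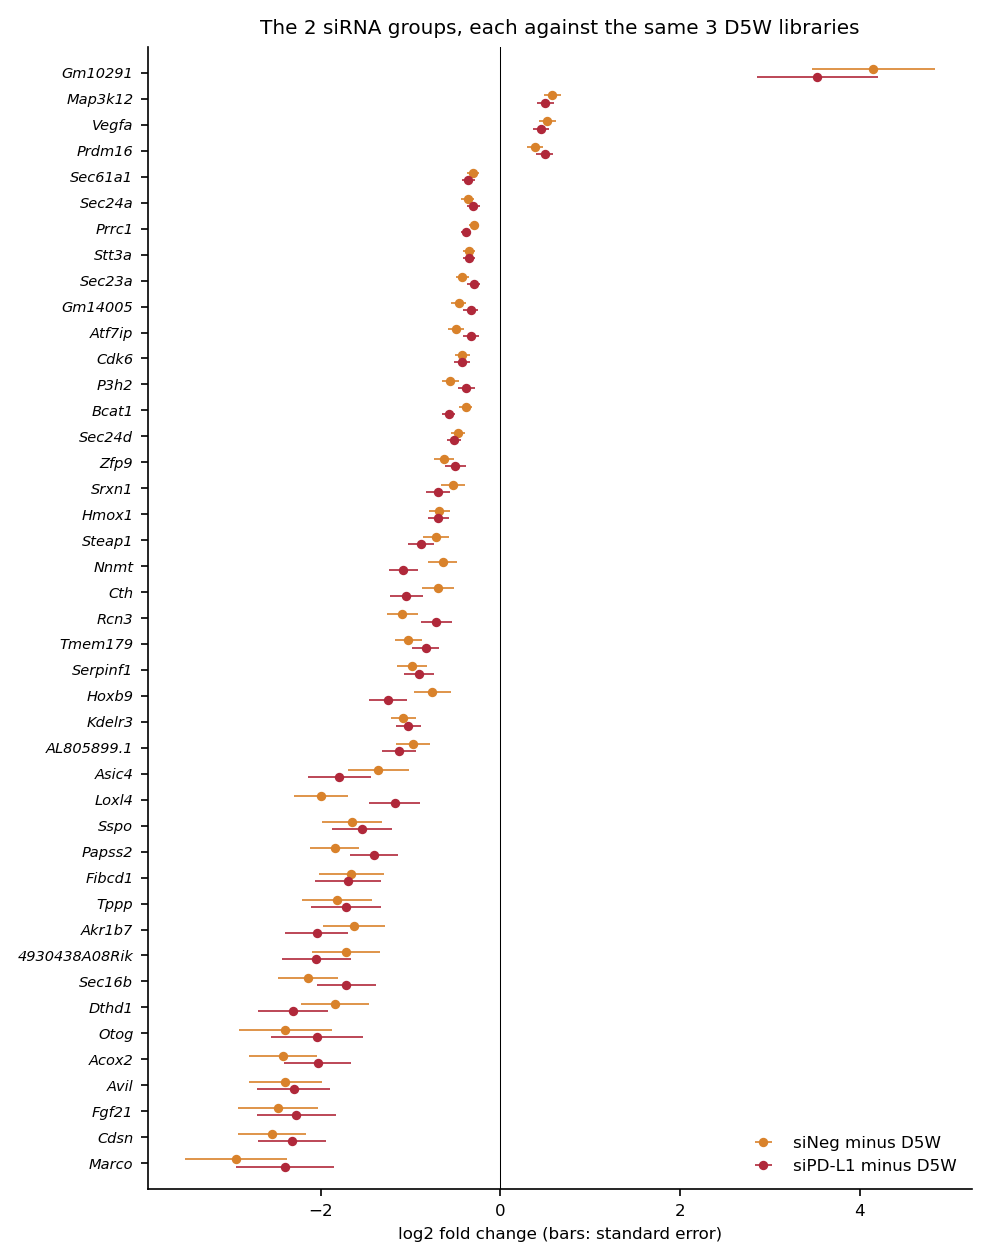
Log2 fold change with its standard error of the 43 called genes with siNeg (orange) and with siPD-L1 (red), each minus the same 3 D5W libraries. In each gene both groups lie on the same side of 0, in part because they share the D5W libraries.

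Cd274, the gene of PD-L1 and the siRNA target (ENSMUSG00000016496, chromosome 19, 29367455 to 29388095), had 14.8, 13.8 and 18.5 CPM in D5W. It had 17.6, 31.6, 28.8 and 21.6 CPM with siNeg and 15.8, 16.5, 17.0 and 20.8 CPM with siPD-L1. The groups overlapped, and the pooled log2 fold change was 0.41±0.15 (edgeR adjusted p = 0.299).

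Interferon response genes held no call in the main edgeR test. DESeq2 called 5 type I interferon genes higher: Irf9, Oas1a, Oas3, Usp18 and Xaf1. Of 32 type I interferon genes, 15 were higher and 0 lower at unadjusted p under 0.05 and 29 had a log2 fold change above 0. The median was 0.48, with 0.60 without D5W replicate 3 and 0.34 without D5W replicate 2. It was 0.73 in siNeg and 0.23 in siPD-L1 against D5W. The list means overlapped, at 2.45, 2.05 and 2.69 log2 CPM in D5W and 2.49 to 3.69 in treated libraries, the highest being siNeg replicate 3. Oas1a, an antiviral RNA sensor, had 9.59, 7.87 and 7.81 against 9.81 to 18.2 CPM, without overlap (0.54±0.12, edgeR adjusted p = 0.078). Irf9, a factor of interferon signalling, was at 0.55±0.15 (adjusted p = 0.128) and the death-linked gene Xaf1 at 0.81±0.21 (adjusted p = 0.114).

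The core of the interferon-stimulated response element, GAAANNGAAA, was found on either strand in 63.6% of the 22 interferon list genes with a window and in 3.81% of all tested genes with one. Oas1a is shown as the member with the smallest p that holds it, with 2 overlapping matches in capitals, 20 and 14 bases before the start (RefSeq, GRCm38.p6):
Oas1a, chr5:120907526-120907775, minus strand: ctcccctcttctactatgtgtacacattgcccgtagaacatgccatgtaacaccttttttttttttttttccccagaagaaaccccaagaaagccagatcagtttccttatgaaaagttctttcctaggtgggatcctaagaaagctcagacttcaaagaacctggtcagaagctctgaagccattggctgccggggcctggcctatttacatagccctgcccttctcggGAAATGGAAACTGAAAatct

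Interferon gamma response genes had a median of 0.33 (2 of 16 higher at unadjusted p under 0.05), which was 0.64 without D5W replicate 3 and 0.01 without D5W replicate 2, with the GTPase Irgm1 at 0.51±0.17 (edgeR adjusted p = 0.24). MHC class I presentation genes had a median of 0.17 (3 of 20 higher), which was 0.18 without D5W replicate 3 and 0.035 without D5W replicate 2. It was 0.39 with siNeg and -0.06 with siPD-L1. The peptide-loading protein Tapbp was at 0.49±0.13 (adjusted p = 0.125) and the nonclassical class I gene H2-T23 at 0.52±0.18 (adjusted p = 0.254). No member of these 2 lists was called in the main edgeR test, while DESeq2 called 1, Tapbp, higher.

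Lymphocyte genes were near the detection floor and varied between libraries of a group. The NK and cytotoxic list had a median of 0.59 (3 of 15 higher at unadjusted p under 0.05), with 1.16 without D5W replicate 3 and 0.29 without D5W replicate 2. The list mean of D5W replicate 3, -1.33 log2 CPM, was above 6 of the 8 treated libraries. The granule proteases Gzma and Gzmb were at 2.16±0.54 (edgeR adjusted p = 0.11) and 1.25±0.58 (adjusted p = 0.414), and the pore former Prf1 at 1.46±0.56 (adjusted p = 0.319). Without D5W replicate 3 these were 3.09, 2.11 and 2.63, with edgeR adjusted p of 0.0654, 0.406 and 0.126. Gzma had 0.0591, 0.0452 and 0.205 against 0.167 to 0.972 CPM, so that the groups overlapped. T cell genes had a median of 0.33 (0 of 19 at unadjusted p under 0.05), which was 0.87 without D5W replicate 3 and 0.03 without D5W replicate 2, and the checkpoint receptor Ctla4 was at 0.78±0.41 (adjusted p = 0.482). B and plasma cell genes had a median of -0.08, dendritic cell genes 0.12, neutrophil genes 0.70 and MHC class II genes 0.08, each with 0 calls. Without D5W replicate 3 these were 0.23, 0.56, 0.70 and 0.54. The MHC class II median was 0.37 with siNeg and -0.22 with siPD-L1.

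Inflammatory and macrophage lists had medians below 0 that came close to 0 without D5W replicate 3, and held no call in the main edgeR test. DESeq2 called 3 inflammatory genes lower: Cxcl1, Il6 and Rel. Of 32 Toll-like receptor and NF-kB genes 6 were lower and 1 higher at unadjusted p under 0.05. The median of -0.23 was -0.03 without D5W replicate 3. The neutrophil attractant Cxcl1 had 9.70, 2.59 and 15.1 CPM in D5W and 0.642 to 5.17 CPM in treated libraries (-2.08±0.46, edgeR adjusted p = 0.0815), and the cytokine Il6 was at -1.97±0.45 (adjusted p = 0.0833). Without D5W replicate 3, Cxcl1 was at -1.51 and Il6 at -1.50, with edgeR adjusted p of 0.452 and 0.414. Macrophage genes had a median of -0.29 (-0.07 without D5W replicate 3), with the scavenger receptor Cd163 at -2.36±0.60 (adjusted p = 0.124) and Mertk, which clears dead cells, at -0.25±0.11 (adjusted p = 0.385). Without D5W replicate 3, Cd163 was at -1.40 and Mertk at -0.15, with edgeR adjusted p of 0.652 and 0.854. Endothelial genes had a median of -0.44 (-0.21 without D5W replicate 3), with the junction gene Cdh5 at -0.89±0.33 (adjusted p = 0.303). Cdh5 was at -0.54 (edgeR adjusted p = 0.835) without D5W replicate 3. The endothelial median was -0.69 with siNeg and -0.17 with siPD-L1.

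Microtubule and cell cycle genes, the field in which paclitaxel acts, held no call among the lists described here. Outside these lists the G1 kinase Cdk6 fell (-0.42±0.07, edgeR adjusted p = 0.0258). So did Tppp, a tubulin polymerization promoting protein (-1.77±0.33, edgeR adjusted p = 0.0484). Tppp had 0.181 to 0.462 CPM in D5W, 0.0698 to 0.112 CPM in treated and 0 CPM in the 3 day 0 libraries. It may thus have passed the expression filter only through D5W, the group where it is high. The Tppp call was lost in 9 of the 11 omissions of a library. Neither call held without D5W replicate 3. Of 25 mitosis genes 1 was lower at unadjusted p under 0.05 (median -0.05), Incenp, of the chromosome passenger complex, at -0.27±0.12 (edgeR adjusted p = 0.385). DNA replication genes had a median of -0.03 and tubulins 0.09, with 0 of 24 and 0 of 14 at unadjusted p under 0.05. Of 23 p53 targets 2 were lower and 0 higher (median 0.03), among them Gadd45a at -0.56±0.15 (adjusted p = 0.133). Bcl2 family genes had a median of 0.12 with 0 of 14 at unadjusted p under 0.05. With 1 time point, an earlier change in these genes could not have been seen.

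Among the other lists, heat shock genes had a median of 0.14 (5 of 15 higher and 0 lower at unadjusted p under 0.05), with the cytosolic chaperones Hsph1 at 0.41±0.11 (edgeR adjusted p = 0.128) and Dnajb1 at 0.39±0.13 (adjusted p = 0.248). Without D5W replicate 3 the heat shock median was 0.19, with Hsph1 at 0.35 and Dnajb1 at 0.19. Immediate early genes were split, 4 higher and 7 lower of 27 (median 0.13), with the phosphatase Dusp1 at 0.46±0.12 (adjusted p = 0.128) and the AP-1 subunit Fosl1 at -1.22±0.29 (adjusted p = 0.0975). Without D5W replicate 3 the immediate early median was 0.07, with Dusp1 at 0.40 and Fosl1 at -0.74. Clock genes were split as well, 3 higher and 2 lower of 15 (median 0.03), with Bhlhe41 at 0.32±0.07 (adjusted p = 0.078) and Per2 at -0.90±0.24 (adjusted p = 0.128). Bhlhe41 was at 0.28 and Per2 at -0.44 without D5W replicate 3. Sialyltransferases had a median of 0.06, with St3gal1 at 0.70±0.15 (adjusted p = 0.07), at 0.94 with siNeg and 0.45 with siPD-L1.

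Melanocyte genes had a median of 0.10 (3 higher and 1 lower of 20), with the lineage factor Sox10 at 0.23±0.09 (edgeR adjusted p = 0.339) and the endothelin receptor Ednrb at -1.02±0.31 (adjusted p = 0.192). Cytosolic ribosomal proteins (0.09), nuclear genes of oxidative phosphorylation (0.12), mitochondrial ones (0.69), the proteasome (-0.05), lysosome (0.05), cholesterol synthesis (-0.09), nucleic acid sensing (0.11) and immune checkpoint genes (0.05) had 0 calls each. Of the tissue markers that could come from the tumour bed, skeletal muscle genes had a median of 1.21 (6 of 11 higher, 1 lower). The muscle myosin Myh1 had 0.0452 to 0.0641 CPM in D5W and 0.076 to 0.307 CPM in treated libraries. Genes this low may pass the expression filter only through the group where they are higher. With a stricter filter, CPM above 1 in at least 3 libraries, the skeletal muscle median was 0.09. Keratinocyte (1.79, 3 of 10 genes tested), adipocyte (-0.22, 4 tested), intestinal (0.08) and erythroid genes (0.14) had 0 calls. The keratinocyte median was 0.43 without siPD-L1 replicate 1. The erythroid median was -0.56 with siNeg and 0.89 with siPD-L1. It was 1.67 without D5W replicate 1 and -0.42 without siPD-L1 replicate 2. Without D5W replicate 1 the medians changed sign for p53 target (-0.047), DNA replication (0.008) and immune checkpoint genes (-0.002), and the proteasome median was 0. Without D5W replicate 2 the medians changed sign for B and plasma cell, dendritic cell, MHC class II, immune checkpoint, erythroid and intestinal genes. Without D5W replicate 3 they did so for B and plasma cell, erythroid, adipocyte, tubulin, sialyltransferase, ribosomal protein and nuclear oxidative phosphorylation genes. The part of these cells in the called genes was not tested.

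**Figure D5:**
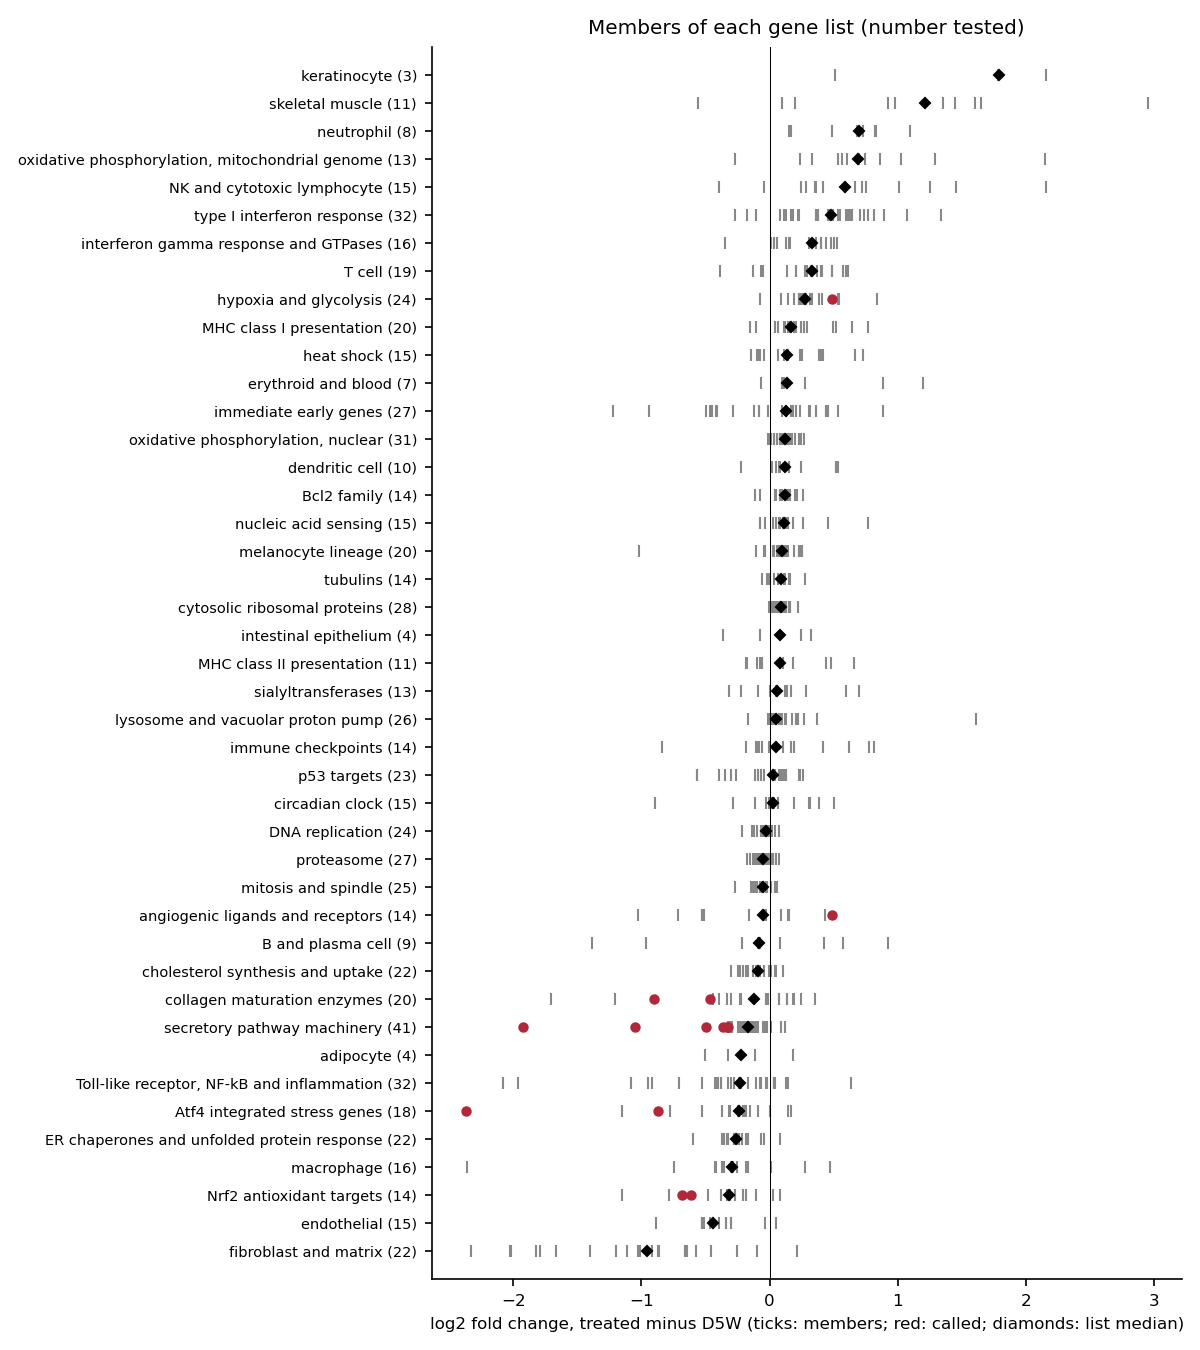
Log2 fold change (treated minus D5W, x axis) of each tested member of 43 gene lists, with called genes as red points and list medians as diamonds. Red points lie in the secretory (6), collagen maturation (2), Nrf2 (2), Atf4 (2), hypoxia (1) and angiogenic (1) lists, where hypoxia and angiogenic share Vegfa.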

How the data were processed

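RNA of 14 mouse tumour libraries was sequenced after a Qiagen RNeasy extraction and a stranded TruSeq kit of Illumina, as the labels' protocols state. Tools named in the submitters' processing notes are FastQC 0.11.3, STAR, featureCounts and edgeR, with GRCm38 as build. For other versions, annotation release and strand setting, the entry is: not given in the sources used here. Unnormalized counts for 37409 Ensembl genes were deposited by the authors, 3935 of them without a read. Symbols and positions are from GENCODE M21 (37386 of the IDs matched, 23 did not).

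All 14 libraries (60.2 M to 85.9 M counts) entered 1 robust quasi-likelihood fit in edgeR 4.0.16 (R 4.3.3) with TMM scaling, filterByExpr (17141 genes kept) and a coefficient per group. The contrast was the mean of siNeg and siPD-L1 minus D5W, with Benjamini-Hochberg adjustment over all tested genes at 0.05. Errors of log2 fold changes are standard errors, and log2 CPM used a prior count of 2. The biological coefficient of variation was 16.6%. Replicates differed by more than sampling noise, which does not show that they are separate mice. Each library was counted as 1 sample. The procedure was tested on simulated data.

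Genes are named by rule: Cd274, the 12 highest and 12 lowest called log2 fold changes with a mean of at least 1 CPM and no overlap, the 8 smallest p in each direction, and up to 4 members of each list by p; the remaining called genes and a few paralogs and regulators were named after their values were seen. A gene that the rule names is not reported here. The 43 lists and this comparison were chosen with earlier results of these data known. Lists hold 799 distinct genes, 761 tested, and some share genes. They are described by counts and medians and not by a set test. Alternatives were DESeq2 1.42.0, limma 3.58.1 voom with sample weights (called voom here), other scalings and filters, fewer libraries, a replicate block and the omission of libraries.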

Additional observations from a re-analysis of the deposited data

Results flagged for a closer look

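In 7 of 176 sets of 4 values, from 88 genes in the 2 treated groups, 1 library lay far from the other 3 in log2 CPM by Dixon's test. Chance flags about 1 in 20 such sets. The gap, as a share of the group's range, was 0.855 for Map3k12 in siNeg replicate 4 (15 CPM beside 13.9 to 14), 0.834 for Marco in siPD-L1 replicate 1 (0.182 beside 0.132 to 0.139), 0.842 for Gm10291 in siPD-L1 replicate 3 (0.354 beside 3.24 to 4.86) and 0.877 for Otog in siPD-L1 replicate 2 (0.25 beside 1.02 to 1.24). It was 0.869 for Ankrd37 in siPD-L1 replicate 1 (6.57 beside 8.71 to 9.09), 0.861 for Nupr1 in siPD-L1 replicate 2 (11.7 beside 21.6 to 23.9) and 0.895 for Gzmb in siPD-L1 replicate 3 (0.519 beside 1.45 to 1.63).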

How the results depend on the processing

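The 43 calls became 119 with library totals only, 97 with no low-count filter, 343 with DESeq2 (81 higher, 262 lower), 145 with voom (56 higher, 89 lower), 20 with only the 11 day 7 libraries and 21 with 1 coefficient for all 8 treated libraries. They were 8 without D5W replicate 3 and siPD-L1 replicate 1 together (5 higher, 3 lower), and 16 to 166 when 1 library was left out. Of the 43, DESeq2 called all 43, voom 42, the day 7 fit 20 and the joint omission 3. The 13 calls among list genes became 26, 20, 59, 25, 5, 6 and 2 under these settings in the same order, and 4 to 27 when 1 library was left out. Between siPD-L1 and siNeg the 0 calls became 56 with DESeq2, 5 with voom, 1 with the joint omission and 0 to 1 when 1 library was left out. No named gene changed sign in a called value. The cause of these shifts was not tested.

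The labels state no pairing. Same-numbered libraries correlated at -0.322 to 0.248 in their deviations, and differently numbered ones at -0.444 to 0.42. Because these ranges overlap, the correlations cannot decide whether the numbers pair the libraries. With the replicate block 3 genes were called, of which Kdelr3 and Hmox1 were among the 43, 2 list genes, and 1 gene between siPD-L1 and siNeg. Libraries held at least 60.2 M counts, there were 3 D5W libraries, and the median standard error was 0.124 log2.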
